A study of Mus musculus with 158 samples.

Results

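Pool 1 of a short hairpin RNA (shRNA) screen for lung colonisation was followed from the infected cell population into mouse lungs and, in parallel, through culture. Its members are the 52 targeting hairpins that the deposited tables assign to pool 1, of 1000 targeting hairpins in the whole screen, and they target 20 genes. The assignment to the pool is the only rule, and all 52 were tested in every comparison.

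The cells are PDA530 Met, a mouse pancreatic ductal adenocarcinoma line whose cells came from a metastasis to the liver, and every group is this 1 line, infected with the hairpin virus of the pool at a multiplicity of infection of 0.3 and kept in puromycin at 3 µg/ml for 4 days. The 3 day 0 libraries come from the pelleted infected cells. The 3 lung libraries, labelled day 28, come from mice given 500000 infected cells into the tail vein, 3 mice to a pool, with every tumour of a mouse combined into 1 DNA sample. The 3 culture libraries, also day 28, come from cells grown for the same time, and their labels name pools 1 and 2 together. Genotype, strain and age of the host mice are not stated in the sources used here. Tail-vein injection places cells straight into the circulation, so the lung arm covers lodging and growth in the lung and not escape from a primary tumour. Knockdown of the target genes was not measured here, and hairpins to 1 gene share their target and are not replicates of each other.

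In such a screen each infected cell carries a hairpin in its genome, and the hairpin serves both as the knockdown agent and as a countable tag of that cell's descendants. A hairpin's share of the reads from genomic DNA therefore stands for the share of cells that carry it. Hairpins against a gene the cells need become rarer, and hairpins against a gene that holds the cells back become more frequent.

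Pool 1 hairpins took 80.5% to 81.9% of the reads of the day 0 libraries, 43.6% to 50.9% of the culture reads and 91.1% to 92.4% of the lung reads. Most other reads belonged to 8 control hairpins and, in culture only, to pool 2, which held 32.8% to 41.0% of the reads there. Pool 2 hairpins took at most 0.221% of a day 0 library and at most 0.157% of a lung library. Depth ranged from 4983059 to 18145069 pool 1 reads in the day 0, culture and lung libraries other than lung library A, which held 225640. Reads amplified by PCR without molecular identifiers are not independent molecules, so limits from read counts cover counting error only.

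The pool narrowed sharply in the lungs onto 1 hairpin against Lama1, which encodes the alpha-1 chain of laminin, a protein of basement membranes. This hairpin, TRCN0000094205, held 23.2%, 22.4% and 22.0% of the pool 1 reads in day 0 libraries A, B and C. It held 25.9%, 24.4% and 24.3% in culture libraries A, B and C, and 66.6%, 57.1% and 65.7% in lung libraries A, B and C. It was the most abundant hairpin of all 3 arms, and every lung value lay above every day 0 and culture value. Against the other hairpins of the pool its log2 change from day 0 was 2.57 ± 0.23 (SE, n = 3 against 3) in the lungs, with an adjusted p of 0.000847 by limma, and its log2 difference between lungs and culture was 2.36 ± 0.27, with an adjusted p of 5.83e-05. In culture its log2 change from day 0 was 0.53 ± 0.10 (adjusted p 0.00312), which turned to -0.43 when reads were scaled to the control hairpins and to -0.12 on the deposited scale. The control reads in culture come from pools 1 and 2 together, so that scale sets culture changes of pool 1 hairpins lower. In the lungs the rise kept its direction and its call under each scaling tried.

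The effective number of hairpins, the number of equally frequent hairpins that would give the same Shannon entropy, summarises this narrowing. It was 23.4, 24.0 and 24.6 in the day 0 libraries, 19.3, 19.8 and 20.3 in culture, and 5.44, 8.16 and 5.59 in the lungs. The arms did not overlap. The lung mean of 6.40 ± 1.53 (SD, n = 3) lay below the day 0 mean of 24.0 ± 0.637 (SD, n = 3) and the culture mean of 19.8 ± 0.459 (SD, n = 3). A two-sided exact permutation test gave p = 0.1 for each pair of arms, the smallest p that 3 against 3 libraries can give. When TRCN0000094205 was left out of the count, a choice made after seeing the data, the lung mean was 24.7 ± 2.16 (SD, n = 3) beside 25.2 ± 0.363 in culture and 30.4 ± 0.517 at day 0. On this count the lung libraries, at 23.8, 27.2 and 23.2, overlapped the culture libraries, at 25.1, 24.8 and 25.6 (difference -0.46, two-sided exact permutation p = 0.8). Hairpins that reached 1 read per 1000 numbered 46 to 48 in the day 0 libraries, 43 or 44 in culture and 37 to 41 in the lungs.

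Among the pools, pool 1 had the largest mean share for a single hairpin in lungs, 63.1% over its 3 libraries, and the next of the 17 pools with lung values had 17.1%. It also ranked first in this respect at day 0 among 19 pools, at 22.5%, before any injection, and second among 18 pools in culture, at 24.9%. These ranks are a description and were not tested.

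Because 1 hairpin takes most lung reads, shares of the others fall in the lungs even where their cells kept pace with each other. Values of the other 51 hairpins are therefore given below as percent of the remaining reads, meaning the pool 1 reads other than those of TRCN0000094205. Log2 changes come from a limma fit to log2(CPM + 1), where CPM is the usual counts-per-million unit taken over pool 1 reads after TMM scaling, which sets the bulk of hairpins near 0. These changes therefore need not match the ratios of the percentages printed beside them.

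In the lungs 25 of the 52 hairpins (48.1%) passed an adjusted p of 0.05 against day 0, 10 higher and 15 lower. Over all 891 hairpins tested in 17 pools, 33.8% passed, 14.7% higher and 19.1% lower. The median log2 change was -0.25 over pool 1 and -0.13 over all pools. Scaling to all pool 1 targeting reads moved the pool 1 median to -1.33 and gave 1 higher call, TRCN0000094205, and 31 lower calls. Of these lower calls, 16 were for hairpins not called with the TMM scaling reported here. A hairpin described below as not passing in lungs may thus be called lower on that scale, and some were called higher on another scale. The deposited scale gave 1 higher and 20 lower, scaling to the control hairpins gave 12 higher and 11 lower, and scaling to the remaining reads gave 11 higher and 15 lower. None of the 9 other higher calls was made against all pool 1 reads or on the deposited scale. Among them TRCN0000024146, TRCN0000031696 and TRCN0000075395 changed sign under scaling to all pool 1 reads, to log2 changes of -0.30, -0.33 and -0.019.

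In culture 41 of the 52 hairpins (78.8%) passed against day 0, 22 higher and 19 lower, while over all 945 hairpins of 18 pools 60.6% passed, 28.8% higher and 31.9% lower. Scaling to all pool 1 reads gave 15 higher and 28 lower, scaling to the remaining reads 16 higher and 28 lower, the deposited scale 11 higher and 31 lower, and scaling to the control hairpins 6 higher and 38 lower. Of the 11 hairpins not called in culture, 9 were called lower against all pool 1 reads, 9 against the remaining reads, 10 on the deposited scale and 11 against the controls. The control reads of the culture libraries belong to pools 1 and 2 together, but only pool 1 reads were scaled to them. Changes against the controls therefore sit lower in culture against day 0, and higher in lungs against culture, than with pool 1 controls alone. Non-targeting-shRNA-1 had a log2 ratio of culture over day 0 of 1.25 over pool 1 reads and 0.40 over both pools. How many of the sign changes rest on this was not tested. In a joint fit of the 3 arms, which share 1 estimate of spread, 26 of the 41 culture calls remained. The calls lost there were TRCN0000012690, TRCN0000022576, TRCN0000022636, TRCN0000023517, TRCN0000023518, TRCN0000024144, TRCN0000025268, TRCN0000028683, TRCN0000031698, TRCN0000042536, TRCN0000065439, TRCN0000068115, TRCN0000068117, TRCN0000071064 and TRCN0000093787. Between lungs and culture 12 hairpins (23.1%) passed, 4 higher and 8 lower in lungs, beside 24.9% of 889 hairpins in all pools, 11.6% higher and 13.3% lower, so this share was near that of the screen. That split was 2 higher and 23 lower after scaling to all pool 1 reads, 2 higher and 10 lower on the deposited scale, and 25 higher and 2 lower after scaling to the controls. The lung and culture comparisons with day 0 share the day 0 libraries.

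The error behind these calls differed between arms. The SD of log2 CPM between the 3 libraries of an arm had a median over hairpins of 0.07 at day 0, 0.17 in culture and 0.53 in lungs. Library A of each arm was sequenced 2 times. The 2 runs of day 0 library A differed by a median of 0.20 on the log2 scale, while runs of different day 0 libraries differed by 0.06 to 0.21, a range that includes the difference between the repeat runs. In culture the repeat runs differed by 0.14 and different libraries by 0.11 to 0.24. In lungs the repeat runs differed by 0.10 and different mice by 0.55 to 0.80. Nothing in the labels says that the day 0 libraries came from separate infections, so their p-values measure the spread between these samples, which may be technical. On simulated reads with an assumed spread, the false share of calls exceeded the threshold in both lung comparisons, as stated with the processing.

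The 4 hairpins against Lama1 did not share 1 direction. TRCN0000094207 held 0.714%, 0.793% and 0.688% of the remaining reads in day 0 libraries A, B and C, 1.11%, 1.16% and 1.39% in culture, and 1.52%, 2.50% and 1.60% in the lungs. All lung values lay above all day 0 values, and the log2 change was 1.33 ± 0.24 (adjusted p 0.00841), or 0.24 and no longer called after scaling to all pool 1 reads. TRCN0000094206 fell, from 2.25%, 2.25% and 2.23% at day 0 to 0.651%, 0.250% and 0.216% in the lungs, beside 1.55%, 1.60% and 1.54% in culture. Its log2 change in the lungs was -2.77 ± 0.50 (adjusted p 0.00841), and in culture it was -0.18 ± 0.09 (adjusted p 0.137), but -0.56 against all pool 1 reads, -0.82 on the deposited scale and -1.13 against the controls, each called lower. The difference between lungs and culture, -2.27 ± 0.48, passed as well (adjusted p 0.00425), but not against the controls (-1.37, adjusted p 0.0564). The culture change of TRCN0000094207 was 0.13 and not called against the controls (adjusted p 0.324).

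The remaining Lama1 hairpin, TRCN0000094204, separated the 2 day 28 arms. It held 0.134%, 0.136% and 0.108% of the remaining reads at day 0, 0.290%, 0.292% and 0.425% in culture and only 0.0359%, 0.0964% and 0.0739% in the lungs. Culture lay above day 0 in all 3 libraries, and lungs lay below day 0 in all 3. Its log2 change was 1.74 ± 0.18 in culture (adjusted p 9.46e-05) and -0.97 ± 0.40 in lungs (adjusted p 0.108), and the lungs lay below culture by -2.40 ± 0.43 (adjusted p 0.00166). The mean log2 change of the 4 Lama1 hairpins in lungs was 0.04, over 2 hairpins that rose, 1 that fell and 1 that did not pass. Against all pool 1 reads the mean was -1.05, with TRCN0000094205 alone called higher and TRCN0000094204 called lower (-2.05, adjusted p 0.0229), and it was -0.64 on the deposited scale and 0.31 against the controls.

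Adamts20 encodes a secreted metalloprotease with thrombospondin repeats. Of its 4 hairpins, TRCN0000031696 passed in lungs: 2.61%, 2.66% and 2.74% of the remaining reads at day 0 became 4.13%, 4.56% and 4.77% in lungs and 3.61%, 3.58% and 3.64% in culture. Its log2 change was 0.75 ± 0.13 in lungs (adjusted p 0.00674; -0.33 against all pool 1 reads) and 0.78 ± 0.07 in culture (adjusted p 5.97e-05; -0.17 against the controls). TRCN0000031697 fell in culture, by -1.52 ± 0.08, from 3.28% to 3.47% at day 0 to 0.862% to 1.01%. In the lungs it held 1.71%, 2.66% and 1.03%, below all day 0 values, but the log2 change of -1.02 ± 0.37 did not pass (adjusted p 0.0794). TRCN0000031695 rose in culture by 1.52 ± 0.16, and its lung change of 1.14 ± 0.39 did not pass (adjusted p 0.0694). That lung change was called higher with DESeq2 size factors (1.29, adjusted p 0.0314). TRCN0000031698, the rarest hairpin of the pool at day 0, had 255 to 543 reads there, 19 to 54 in culture and 2, 263 and 59 in the lungs. Its fall in culture, -2.25 ± 0.47, was lost without day 0 library B (adjusted p 0.0506) and in DESeq2's test (adjusted p 0.129).

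The neurotrophin Ntf3 and its receptor tyrosine kinase Ntrk3 had 6 hairpins in the pool. All 6 passed as higher in culture, beside 22 of the 52 hairpins of pool 1 and 28.8% of those in all pools. After scaling to the controls TRCN0000065441 was still called higher, 3 of the 6 were called lower, and TRCN0000065438 and TRCN0000065440 were not called. Of the 6 culture calls, 3 were lost against all pool 1 reads, 3 on the deposited scale, 3 in the joint fit of the arms and 2 against the remaining reads. In lungs 3 passed as higher and none as lower, beside 14.7% higher in all pools, and these 3 calls were lost against all pool 1 reads and on the deposited scale. TRCN0000065438, against Ntf3, held 3.96%, 3.82% and 3.57% of the remaining reads at day 0, 5.64%, 5.08% and 5.78% in culture and 6.84%, 8.94% and 12.5% in lungs, so each arm stood clear of the others. Its log2 change was 1.28 ± 0.19 in lungs (adjusted p 0.00413; 0.19 and not called against all pool 1 reads) and 0.88 ± 0.07 in culture (adjusted p 2.80e-05; -0.071 against the controls). The difference between lungs and culture was 0.72 ± 0.22 (adjusted p 0.0310), but it was lost without culture library A, B or C or lung library B or C (adjusted p 0.0506 to 0.142), turned to -0.30 against all pool 1 reads and was not called on the deposited scale (0.36, adjusted p 0.274), with DESeq2 size factors (adjusted p 0.0548) or in DESeq2's test (adjusted p 0.107).

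TRCN0000065441, also against Ntf3, rose from 0.949%, 0.932% and 1.06% at day 0 to 3.41%, 1.90% and 2.13% in lungs and 2.24%, 2.71% and 2.34% in culture. Lungs and culture overlapped, and both lay above day 0. Its log2 change was 1.30 ± 0.31 in lungs (adjusted p 0.0244, lost without day 0 library A, at 0.0552, or B, at 0.0594) and 1.65 ± 0.12 in culture (adjusted p 1.50e-05). TRCN0000065440 rose in culture by 1.04 ± 0.09 (0.090 and not called against the controls, adjusted p 0.360), and its lung change of 0.46 ± 0.15 did not pass (adjusted p 0.0612). That lung change was called higher against the controls (0.73, adjusted p 0.0178) and lower against all pool 1 reads (-0.62, adjusted p 0.0236). TRCN0000065439 varied most between mice among hairpins seen in every library: 0.311%, 0.551% and 0.0121% of the remaining reads in lungs A, B and C, beside 0.726% to 0.796% at day 0. All 3 lung values were below day 0, and the log2 change of -2.57 ± 1.41 did not pass (adjusted p 0.212), while in culture it was 0.59 ± 0.13 (adjusted p 0.00489; -0.36 against the controls and -0.052 on the deposited scale).

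For the receptor, TRCN0000023518 held 0.398%, 0.429% and 0.434% of the remaining reads at day 0, 0.414%, 0.419% and 0.448% in culture and 0.817%, 0.906% and 1.05% in lungs. Lung values lay above those of both other arms, with no overlap. The log2 change in lungs was 1.14 ± 0.18 (adjusted p 0.00544; 0.05 and not called against all pool 1 reads), and lungs lay above culture by 1.09 ± 0.35 (adjusted p 0.0383). That difference was lost without culture library A, B or C or lung library A or C (adjusted p 0.0598 to 0.136), against all pool 1 reads (0.070, adjusted p 0.888) and on the deposited scale (0.73, adjusted p 0.128). In culture its change was 0.37 ± 0.11 (adjusted p 0.0236), turned to -0.020 against all pool 1 reads, -0.59 against the controls and -0.27 on the deposited scale, and was lost without culture library B (adjusted p 0.132). TRCN0000023517, the other Ntrk3 hairpin, overlapped between lungs and day 0, with a log2 change of -0.20 ± 0.23 (adjusted p 0.550), and in culture it was 0.40 ± 0.09 (adjusted p 0.00562), or -0.55 against the controls and -0.24 on the deposited scale. Against the remaining reads the culture changes of TRCN0000023518 and TRCN0000023517 were 0.024 and 0.061 (adjusted p 0.879 and 0.546), neither called.

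Both hairpins against Ctnnb1, which encodes beta-catenin, the transcriptional effector of Wnt signalling and a partner of cadherins, fell in the lungs. TRCN0000012690 held 1.62%, 1.52% and 1.97% of the remaining reads at day 0, 1.11%, 0.931% and 1.20% in culture and 0.594%, 0.208% and 0.372% in lungs. TRCN0000012692 held 4.67%, 4.32% and 4.15% at day 0, 1.68%, 1.47% and 1.85% in culture and 0.801%, 0.990% and 1.70% in lungs. For both, lungs and day 0 did not overlap. The log2 changes in lungs were -2.23 ± 0.44 (adjusted p 0.0122) and -1.98 ± 0.26 (adjusted p 0.00279), and both kept their direction and call under each scaling and left-out library.

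In culture the 2 Ctnnb1 hairpins were lower as well, by -0.31 ± 0.11 for TRCN0000012690 (adjusted p 0.0401) and -1.06 ± 0.08 for TRCN0000012692 (adjusted p 1.39e-05). The first of these calls was lost without day 0 library A, B or C or culture library A (adjusted p 0.0534 to 0.406), and with DESeq2 size factors (-0.26, adjusted p 0.0628). This call was also lost in the joint fit of the arms (-0.27, adjusted p 0.587). Lungs lay below culture for TRCN0000012690, by -1.61 ± 0.46 (adjusted p 0.0218; lost without culture library A, at 0.0890, or C, at 0.0625, and against the controls, where it was -0.70 with an adjusted p of 0.232), and for TRCN0000012692 the difference of -0.61 ± 0.31 did not pass (adjusted p 0.173). A further Ctnnb1 hairpin, TRCN0000012689, sits in pool 2, which was injected into other mice. Its share of pool 2 reads was 1.17% ± 0.0920 (SD, n = 3) at day 0, 0.132% ± 0.0155 (SD, n = 3) in culture and 0.114% ± 0.0317 (SD, n = 3) in lungs. In the fit of pool 2 its log2 change was -3.03 ± 0.31 in lungs (adjusted p 0.000314) and -2.64 ± 0.19 in culture (adjusted p 1.787e-13), and lungs and culture did not differ beyond their spread (-0.16 ± 0.29, adjusted p 0.724). All 3 tested hairpins against Ctnnb1, in 2 pools, were thus called lower in lungs and in culture, with the limits given above for TRCN0000012690 in culture. Over all pools 19.1% of hairpins were called lower in lungs and 31.9% in culture, and in pool 1 the counts were 15 and 19 of 52.

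Apc encodes a scaffold of the complex that marks beta-catenin for destruction. Of its 4 hairpins, TRCN0000042533 fell in both arms, from 1.15%, 1.21% and 1.28% at day 0 to 0.278%, 0.309% and 0.208% in culture and 0.334%, 0.229% and 0.355% in lungs. The log2 change was -2.01 ± 0.26 in lungs (adjusted p 0.00272) and -1.87 ± 0.20 in culture (adjusted p 0.000127). TRCN0000042535 rose in culture: 0.869%, 0.893% and 0.848% at day 0 became 2.15%, 2.29% and 2.63%, a log2 change of 1.77 ± 0.07 (adjusted p 2.06e-07). In lungs it held 0.969%, 1.90% and 1.28%, with a log2 change of 0.62 ± 0.25 (adjusted p 0.108). With DESeq2 size factors that lung change was called higher (0.77, adjusted p 0.0478). Lungs lay below culture by -0.84 ± 0.28 (adjusted p 0.0476), a call that turned to 0.062 against the controls and was lost without culture library A, B or C or lung library C (adjusted p 0.0653 to 0.147) and in edgeR (adjusted p 0.0637). TRCN0000042534 and TRCN0000042536 did not pass in lungs, with log2 changes of 0.48 ± 0.32 and -0.10 ± 0.27.

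Acvr1b encodes a type I receptor for activins, and Smad4 encodes the shared mediator that carries activin, TGF-beta and BMP signals to the nucleus. Of 3 Acvr1b hairpins, 2 were called lower in lungs, beside 15 of 52 in the pool and 19.1% over all pools. TRCN0000022576 held 0.103%, 0.137% and 0.105% of the remaining reads at day 0 and 0.0182%, 0.0311% and 0.0483% in culture. In the lungs it had 0 reads in library A, which allows up to 0.00133% of the pool 1 reads there, and 185 and 96 reads in libraries B and C, or 0.00427% and 0.00560% of the remaining reads. The log2 change was -6.13 ± 1.33 in lungs (adjusted p 0.0174; -4.45 and still called without lung library A) and -1.57 ± 0.35 in culture (adjusted p 0.00573, lost without day 0 library B, at 0.0525). Scaling to the controls gave -6.82 in lungs with an adjusted p of 0.0722. Lungs lay below culture by -4.23 ± 1.36 (adjusted p 0.0377), and without culture library A, B or C that p was 0.0863 to 0.106. This difference was also lost against the controls (-4.30, adjusted p 0.185) and on the deposited scale (-5.57, adjusted p 0.0819).

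TRCN0000022577, against the same receptor, held 0.922%, 0.899% and 1.04% at day 0, 0.291%, 0.221% and 0.261% in culture and 0.194%, 0.372% and 0.0792% in lungs. Both day 28 arms lay below day 0 and overlapped each other. The log2 change was -2.40 ± 0.57 in lungs (adjusted p 0.0231) and -1.55 ± 0.14 in culture (adjusted p 4.06e-05). TRCN0000022575 did not follow: at 0.429%, 0.296% and 0.280% in lungs against 0.213%, 0.220% and 0.265% at day 0, its log2 change was 0.51 ± 0.31 (adjusted p 0.253). The single Smad4 hairpin, TRCN0000025881, overlapped between lungs (0.799%, 1.35% and 0.740%) and day 0 (1.07%, 1.12% and 1.24%), with a log2 change of -0.29 ± 0.28 (adjusted p 0.453) in lungs and -0.21 ± 0.11 in culture (adjusted p 0.126). In culture it was called lower under 4 of the scalings, at -0.55 against the remaining reads to -1.16 against the controls.

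Hairpins against Il2rg, the common gamma chain shared by several interleukin receptors, were called lower in the lungs in 3 of 4 cases, beside 15 of 52 in the pool and 19.1% over all pools. TRCN0000068114 went from 0.611%, 0.585% and 0.656% of the remaining reads at day 0 to 0.0932%, 0.0876% and 0.0667% in culture and 0.0133%, 0.0617% and 0.0453% in lungs. Each arm stood below the one before it, and the log2 change was -4.19 ± 0.53 in lungs (adjusted p 0.00262) and -2.57 ± 0.21 in culture (adjusted p 2.52e-05). The difference between lungs and culture, -1.31 ± 0.66, did not pass (adjusted p 0.173). TRCN0000068117 held 2.53%, 2.50% and 2.60% at day 0, 1.30%, 1.39% and 1.16% in culture and 0.541%, 0.600% and 0.263% in lungs, a log2 change of -2.52 ± 0.38 (adjusted p 0.00481) in lungs and -0.65 ± 0.13 in culture (adjusted p 0.00340). Lungs lay below culture by -1.56 ± 0.43 (adjusted p 0.0178), lost without culture library A, at 0.0773, or B, at 0.0625, and against the controls, where it was -0.66 with an adjusted p of 0.270.

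TRCN0000068116 was rarer, at 0.262% to 0.322% at day 0 and 0.122%, 0.191% and 0.0994% in lungs. Its log2 change of -1.18 ± 0.33 in lungs (adjusted p 0.0366) was lost without day 0 library A, B or C (adjusted p 0.0847 to 0.114) and against the controls (-0.91, adjusted p 0.104), and in culture the change was 0.08 ± 0.20 (adjusted p 0.749). The culture value was -0.30 against all pool 1 reads and -0.56 on the deposited scale, neither called, and -0.87 and called lower against the controls (adjusted p 0.00806). TRCN0000068115 differed between mice, at 1.28%, 5.56% and 1.81% in lungs A, B and C beside 3.03% to 3.17% at day 0, so library B lay above and the other two below. It did not pass in lungs (-0.40 ± 0.50, adjusted p 0.569) and was lower in culture by -1.16 ± 0.20 (adjusted p 0.00150).

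Ifna1 encodes a type I interferon, a secreted antiviral cytokine. TRCN0000065474 was rare from the start, with 2332, 1405 and 909 reads in the day 0 libraries, 293, 51 and 507 in culture and 2, 0 and 22 in lungs. Its 0 of 10113308 pool 1 reads in lung library B allows a share of up to 2.97e-05%. The log2 change of -4.25 ± 1.16 in lungs passed (adjusted p 0.0347), but not without day 0 library A, B or C or lung library C (adjusted p 0.0674 to 0.0877), nor against the controls (adjusted p 0.123), on the deposited scale (adjusted p 0.0698), in edgeR (adjusted p 0.0542) or in DESeq2 (adjusted p 0.0844). The other Ifna1 hairpin, TRCN0000065475, overlapped between lungs and day 0 (-0.17 ± 0.32, adjusted p 0.722).

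Csmd3 encodes a large transmembrane protein with CUB and sushi domains. Its hairpin TRCN0000087306 was among the most abundant of the pool at day 0 and stayed so in culture, at 10.0%, 10.2% and 9.47% of the remaining reads and then 8.56%, 9.09% and 8.26%. In the lungs it held 2.15%, 1.01% and 2.37%. All lung values lay far below both other arms. The log2 change was -2.51 ± 0.35 in lungs (adjusted p 0.00357) and 0.15 ± 0.10 in culture (adjusted p 0.255). The culture change was -0.24 against all pool 1 reads, -0.50 on the deposited scale and -0.80 against the controls, each called lower. On the reported scale lungs lay below culture by -2.34 ± 0.31 (adjusted p 0.000190). This difference kept its call under each scaling and left-out library.

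TRCN0000087307, the second Csmd3 hairpin, was lower in both arms, at 1.02%, 1.08% and 1.27% at day 0, 0.447%, 0.339% and 0.502% in culture and 0.391%, 0.325% and 0.600% in lungs. Its log2 change was -1.39 ± 0.27 in lungs (adjusted p 0.0104) and -1.06 ± 0.13 in culture (adjusted p 0.000289), and lungs and culture overlapped. Each of the 2 Csmd3 hairpins of pool 1 was thus called lower in lungs, beside 15 of 52 in the pool and 19.1% over all pools. In pool 3, for which no lung values were used here, culture shares of Csmd3 hairpins TRCN0000251127 and TRCN0000251128 gave log2 changes of -1.90 ± 0.48 (n = 3 against 2, adjusted p 0.0150) and 0.78 ± 0.40 (adjusted p 0.142).

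Gpr98, now named Adgrv1, encodes a very large adhesion receptor. None of its 4 hairpins passed in lungs, where log2 changes ran from -0.48 to 0.56, and all 4 passed in culture, 2 higher and 2 lower. Over pool 1 the shares called were 48.1% in lungs and 78.8% in culture, and over all pools 33.8% and 60.6%. Against all pool 1 reads TRCN0000028700, TRCN0000028726 and TRCN0000028752 were called lower in lungs. TRCN0000028726 was called lower on the deposited scale as well (-0.79, adjusted p 0.0412), and TRCN0000028752 was called higher against the remaining reads (0.56, adjusted p 0.0459) and against the controls (0.83, adjusted p 0.0105). TRCN0000028726 held 3.39%, 3.56% and 3.41% of the remaining reads at day 0, 7.08%, 7.10% and 6.44% in culture and 3.17%, 3.72% and 2.76% in lungs. Culture alone stood apart, by 1.34 ± 0.10 from day 0 (adjusted p 1.90e-05), and lungs lay below culture by -1.13 ± 0.22 (adjusted p 0.00267), which was no longer called against the controls (-0.22). TRCN0000028752 rose in culture by 1.00 ± 0.10 (0.046 and not called against the controls, adjusted p 0.642) and had a lung change of 0.56 ± 0.21 (adjusted p 0.0863), with 12.0%, 8.38% and 11.2% in lungs beside 6.80% to 7.34% at day 0. TRCN0000028683 and TRCN0000028700 fell in culture, by -0.92 ± 0.16 and -1.10 ± 0.07.

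Among the kinases, the hairpins against Stk11, which encodes the tumour suppressor LKB1, went in opposite ways in lungs. TRCN0000024146 held 1.25%, 1.24% and 1.35% of the remaining reads at day 0 and 2.15%, 2.09% and 2.35% in lungs. TRCN0000024144 held 2.30%, 2.35% and 2.25% at day 0 and 1.48%, 1.47% and 1.55% in lungs. Neither overlapped between the 2 arms, and both were close between mice. The log2 changes were 0.78 ± 0.17 (adjusted p 0.0180; -0.30 against all pool 1 reads) and -0.61 ± 0.18 (adjusted p 0.0392). The first was lost without day 0 library A, B or C (adjusted p 0.0614 to 0.0873), and the second without day 0 library A, B or C or lung library A (adjusted p 0.0626 to 0.151). The second was also lost against the controls (-0.35, adjusted p 0.180), with DESeq2 size factors (-0.46, adjusted p 0.127), in DESeq2's own test (adjusted p 0.165) and when the 3 arms shared 1 fit (-0.37, adjusted p 0.131). In culture both were higher on the reported scale, by 0.51 ± 0.07 and 0.40 ± 0.12. Neither was called against the remaining reads (0.16 and 0.053, adjusted p 0.190 and 0.730) or against all pool 1 reads (0.12 and 0.0099, adjusted p 0.336 and 0.948). Both were called lower when scaled to the controls (-0.45 and -0.56). On the deposited scale they were -0.13 and -0.25 and not called. For TRCN0000024144 lungs minus culture was -0.69 ± 0.27 and did not pass (adjusted p 0.0870), but it was called lower against all pool 1 reads (-1.71), on the deposited scale (-1.05) and with DESeq2 size factors (-0.78), and was 0.21 against the controls. A further Stk11 hairpin, TRCN0000024148 in pool 2, was rare, at 0.00432% ± 0.00312 (SD, n = 3) of pool 2 reads at day 0. Its log2 change of -0.86 ± 1.18 in lungs did not pass (adjusted p 0.605).

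Map2k4 encodes a MAP kinase kinase upstream of JNK and p38, and Ripk4 a kinase of epithelial differentiation. Their 4 hairpins did not pass in lungs, where 48.1% of the pool 1 hairpins and 33.8% of those in all pools passed. TRCN0000025267 (Map2k4) overlapped, at 2.62%, 3.49% and 4.04% in lungs beside 3.06% to 3.19% at day 0, and TRCN0000025268 had a log2 change of -0.63 ± 0.29 (adjusted p 0.140). In culture they moved apart, by 0.77 ± 0.09 for TRCN0000025267 (-0.18 against the controls) and -0.45 ± 0.15 for TRCN0000025268, the latter lost without day 0 library A, B or C (adjusted p 0.110 to 0.113). TRCN0000022636 (Ripk4) ranged widely between mice, at 5.66%, 1.26% and 2.98% in lungs beside 1.95% to 2.11% at day 0. Its log2 change was 0.45 ± 0.57 in lungs (adjusted p 0.582) and 0.79 ± 0.18 in culture (adjusted p 0.00659; -0.17 against the controls). TRCN0000022638, rare at 0.0556% to 0.0702% at day 0, passed in neither arm, but in culture, where its change was -0.60 ± 0.26 (adjusted p 0.0732), it was called lower under 4 of the scalings, at -0.95 to -1.56.

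The cell cycle genes Cdkn1b and Rb1 had 1 hairpin each in the pool. Cdkn1b encodes the cyclin-dependent kinase inhibitor p27. Its pool 1 hairpin TRCN0000071064 held 0.148%, 0.161% and 0.160% at day 0, 0.171%, 0.190% and 0.220% in culture and 0.206%, 0.462% and 0.227% in lungs. Both day 28 arms lay above day 0. The culture change of 0.64 ± 0.16 passed (adjusted p 0.00813), and the lung change of 0.84 ± 0.35 did not (adjusted p 0.112). The culture call was lost against the remaining reads (0.30, adjusted p 0.190), against all pool 1 reads (0.26, adjusted p 0.287) and on the deposited scale (0.0044, adjusted p 0.98). Against the controls the culture change was -0.31 and not called. Rb1 encodes the retinoblastoma protein, which restrains entry into S phase. Its pool 1 hairpin TRCN0000055378 was rare, with 2482, 1176 and 929 reads at day 0, 486, 47 and 360 in culture and 0, 423 and 11 in lungs, and passed in neither arm (log2 change -3.95 ± 1.46 in lungs, adjusted p 0.0841, and -1.82 ± 0.70 in culture, adjusted p 0.0547). In culture it was called lower under 4 of the scalings, at -2.16 to -2.80. Hairpins against Rb1 in pools 2 and 3 had culture changes of 1.62 ± 0.17 (TRCN0000042543, adjusted p 3.465e-09) and 3.60 ± 1.83 (TRCN0000218099, adjusted p 0.137), and TRCN0000042543 did not pass in lungs (0.86 ± 0.59, adjusted p 0.291).

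Peg3 encodes an imprinted zinc finger protein. Its hairpin TRCN0000075396 differed between lungs and culture: 0.450%, 0.481% and 0.436% of the remaining reads at day 0, 0.0473%, 0.0868% and 0.0863% in culture and 1.44%, 1.65% and 0.812% in lungs. All lung values lay above day 0, and all culture values below it. The log2 change was 1.46 ± 0.34 in lungs (adjusted p 0.0211, lost without day 0 library C, at 0.0534; 0.37 and not called against all pool 1 reads) and -2.34 ± 0.25 in culture (adjusted p 0.000116). Lungs exceeded culture by 4.11 ± 0.42 on the log2 scale (adjusted p 2.26e-05), with the same call under each scaling and left-out library, at 3.10 to 5.02 over the scalings.

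The other Peg3 hairpins differed from it and from each other. TRCN0000075395 rose from 2.85%, 2.81% and 2.85% at day 0 to 5.19%, 4.75% and 5.63% in culture and 5.46%, 8.63% and 4.39% in lungs, by 1.21 ± 0.06 in culture (adjusted p 6.11e-07) and 1.07 ± 0.26 in lungs (adjusted p 0.0248). The lung call was lost without day 0 library B, at 0.0504, or C, at 0.0527, and turned to -0.019 against all pool 1 reads. TRCN0000075393 fell from 2.40%, 2.38% and 2.39% to 1.08%, 0.965% and 0.964% in culture and 0.561%, 1.09% and 0.818% in lungs, by -1.59 ± 0.23 in lungs (adjusted p 0.00388) and -0.91 ± 0.10 in culture (adjusted p 0.000123).

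Galnt13 encodes an enzyme that starts mucin-type O-glycosylation. TRCN0000093788, the second most abundant hairpin of the pool at day 0, held 10.9%, 10.9% and 10.9% of the remaining reads there, 8.25%, 7.61% and 7.84% in culture and 14.3%, 6.55% and 10.2% in lungs. Lung library A lay above day 0 and libraries B and C below, with a log2 change of -0.14 ± 0.33 (adjusted p 0.777). TRCN0000093787 fell in culture, by -0.96 ± 0.15 (adjusted p 0.00109), and not beyond its spread in lungs (-0.59 ± 0.45, adjusted p 0.354).

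Counted by gene on the reported scale, 4 of the 20 genes had called hairpins in both directions in lungs, among them Lama1, Peg3 and Stk11, and 7 had no call. The hairpins of Csmd3, of Ctnnb1 and of Il2rg had negative log2 changes in lungs under each scaling tried. In culture 6 genes had calls in both directions and 3 had none. Mean log2 changes over a gene's hairpins in lungs ran from -2.67 for Acvr1b, -2.21 for Ifna1, -2.11 for Ctnnb1, -2.07 for Il2rg and -1.95 for Csmd3 to 0.47 for Ntrk3 among genes with at least 2, and the Ntrk3 mean was -0.62 against all pool 1 reads and -0.21 on the deposited scale. The same gene means in culture were -1.14, -1.06, -0.69, -1.07, -0.45 and 0.39, and against the controls they were -2.09, -2.02, -1.64, -2.03, -1.41 and -0.57. The Ntrk3 culture mean was also below 0 against all pool 1 reads (-0.0014) and on the deposited scale (-0.25). The Acvr1b lung mean was taken over changes of -6.13, -2.40 and 0.51, and the Ifna1 lung mean over -4.25 and -0.17. The lowest value of each came from a rare hairpin with 0 reads in a lung library, so these 2 means are not shared by all hairpins of the gene.

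The control hairpins in the same libraries, given as percent of the pool 1 targeting reads, moved too. Non-targeting-shRNA-1 took 11.7%, 11.6% and 13.7% at day 0 and 6.80%, 7.91% and 7.09% in lungs, a log2 ratio of -0.76. Non-targeting-shRNA-2, which has no intended target, was 0.0366%, 0.0449% and 0.0394% at day 0 and 0.000443%, 0.000415% and 0.00202% in lungs, where lung library A had 1 read. Its log2 ratio was -5.39.

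Hairpins against PIK3CA and MUC1 and against GFP had log2 ratios of -2.50, -3.29 and -1.83 in lungs, and lung library A had 3 reads of the GFP hairpin. The control hairpin against Cdkn1b was the only one of the 8 with a ratio above 0, at 0.28 (0.534%, 0.534% and 0.593% at day 0, 0.543%, 0.818% and 0.660% in lungs). These control ratios share the denominator that TRCN0000094205 dominates in lungs, and on that scale the median log2 change of the pool 1 hairpins was -1.33. In culture, over the reads of pools 1 and 2 together, the ratios were 0.40 for Non-targeting-shRNA-1, -2.87 for Non-targeting-shRNA-2, -1.62 for PIK3CA, -3.09 for MUC1, -0.85 for GFP and -0.06 for Cdkn1b. Over pool 1 reads alone the Cdkn1b ratio in culture was 0.78.

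Differences between mice set the precision of the lung values. Across the 52 hairpins, lung libraries correlated at r = 0.906 to 0.938 in log2 CPM, culture libraries at 0.978 to 0.992 and day 0 libraries at 0.997 to 0.999, a description over hairpins that share libraries. Hairpins under 0.3% of the day 0 reads, 11 in number, had a median SD between lungs of 0.76 on the log2 scale, and the 41 others 0.49. Gpr98 TRCN0000028752 was the steadiest share of all pool 1 reads in lungs, its highest library 1.12 times its lowest, and Lama1 TRCN0000094205 came next, at 1.17 times. At the other end Ntf3 TRCN0000065439 had a 56.7-fold range. The 3 hairpins with 0 reads in a lung library, against Acvr1b, Rb1 and Ifna1, were among the 5 rarest at day 0.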

How the data were processed

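Hairpins in genomic DNA were amplified by a two-step PCR and sequenced, per the labels' protocols, and the submitters' processing notes name BWA 0.5.9. How reads were assigned to hairpins is not stated in the sources used here. The deposited tables hold a normalised signal per hairpin, and in 17 of 148 libraries with values the deposited values are already whole read counts. Each value was divided by the smallest of its library, taken as 1 read, and 27241 of 27241 values came out whole within 0.01 reads. Hairpins with no row were taken as 0 reads, and the 2 runs of library A of each arm were summed.

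Each of the 3 comparisons was fitted per pool with limma 3.58.1 in R 4.3.3 (variance trend, robust) on log2(CPM + 1), with TMM factors from edgeR 4.0.16 over the pool's targeting hairpins and hairpins under a mean of 10 reads left out. Benjamini-Hochberg adjustment ran over the hairpins of every pool, with 0.05 as the threshold. Within pool 1 the median prior degrees of freedom were 2.29, 3.38 and 8.30 for lungs against day 0, culture against day 0 and lungs against culture. On simulated reads with lungs made the most variable arm, the fit recovered most changed hairpins, but the false share of its calls exceeded the threshold in both lung comparisons. Alternatives were other scalings, filters and pseudocounts, edgeR and DESeq2 1.42.0 on the recovered reads, a joint fit of the arms, single runs, left-out libraries and the replicate letter as a block.

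The labels do not say that a letter marks a shared source, and the deviations of same-lettered libraries from their arm's mean correlated at -0.30 to 0.27, so the letters were not used as pairs. Named hairpins are those called in either lung comparison, the 8 largest changes each way in culture, other pool 1 hairpins of the same genes, abundant hairpins and controls; most of the rest of the 52 were described too. Some items are counted in the totals but not reported here. Members, lists and rules were chosen with earlier results of these data known. Control rows marked with an asterisk held trace reads and were left out of the 8 controls. All but 1 gene symbol matched RefSeq names (GRCm38.p6) directly, and Gpr98 matched as a synonym of Adgrv1. Hairpin sequences and genome coordinates were not used here.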

Additional observations from a re-analysis of the deposited data

Results flagged for a closer look

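For 4 hairpins of pool 1 the fitted log2 changes from day 0 had opposite signs in lungs and in culture, and the difference between lungs and culture itself passed the limma test. Peg3 TRCN0000075396 was higher in lungs than in culture by 4.11, with changes from day 0 of 1.46 in lungs and -2.34 in culture, both called. Lama1 TRCN0000094204 differed by -2.40, with -0.97 in lungs, which did not pass (adjusted p 0.108), and 1.74 in culture. Csmd3 TRCN0000087306 differed by -2.34, with -2.51 in lungs and 0.15 in culture, which did not pass (adjusted p 0.255). Its share of the remaining reads was lower in culture than at day 0, and the fitted culture change was -0.24 against all pool 1 reads, -0.50 on the deposited scale and -0.80 against the controls, the sign it had in lungs. Gpr98 TRCN0000028726 differed by -1.13, with -0.11 in lungs, which did not pass (adjusted p 0.683), and 1.34 in culture, and this difference was -0.22 and not called after scaling to the control hairpins. Its lung change was 0.16 against the controls and 0.048 with DESeq2 size factors, the sign it had in culture. The 3 other differences kept their call under each scaling tried. With 3 libraries to an arm, single libraries were not tested for standing apart from their group.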

How the results depend on the processing

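The count of lung calls against day 0 stayed within 1.5 times the reported 25 under each alternative, at 18 to 31 when 1 library was left out, and 17 of the 25 hairpins kept their call in every such fit. For culture the count of 41 was 38 to 44 without 1 library, but 26 when the arms shared 1 fit and thus 1 estimate of spread. For lungs against culture the count of 12 became 25 after scaling to all pool 1 reads and 27 after scaling to the controls, and 6 to 15 without 1 library, with 6 of the 12 hairpins called in every such fit. The replicate block gave 23, 38 and 12 calls. edgeR gave 23, 41 and 11, and DESeq2 28, 41 and 15. The joint fit gave 31 calls for lungs against day 0 and 18 for lungs against culture. The cause of these shifts was not tested.

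Reported hairpins with a call that changed sign did so only under 3 scalings. After scaling to all pool 1 reads the lung changes of Stk11 TRCN0000024146, Adamts20 TRCN0000031696 and Peg3 TRCN0000075395 were -0.30, -0.33 and -0.019, the culture changes of Ntrk3 TRCN0000023518 and Apc TRCN0000042536 were -0.020 and -0.014, and Ntf3 TRCN0000065438 in lungs against culture was -0.30. After scaling to the controls Apc TRCN0000042535 in lungs against culture was 0.062. The culture changes were then -0.17 for Ripk4 TRCN0000022636, -0.55 and -0.59 for Ntrk3 TRCN0000023517 and TRCN0000023518, -0.56 and -0.45 for Stk11 TRCN0000024144 and TRCN0000024146, -0.18 for Map2k4 TRCN0000025267, -0.17 for Adamts20 TRCN0000031696, -0.58 for Apc TRCN0000042536, -0.071 and -0.36 for Ntf3 TRCN0000065438 and TRCN0000065439, -0.31 for Cdkn1b TRCN0000071064 and -0.43 for Lama1 TRCN0000094205. On the deposited scale the culture changes were -0.24 and -0.27 for the same Ntrk3 hairpins, -0.25 and -0.13 for the Stk11 hairpins, -0.27 for Apc TRCN0000042536, -0.052 for Ntf3 TRCN0000065439 and -0.12 for Lama1 TRCN0000094205.

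The log2 ratio of mean effective numbers was -1.91 for lungs over day 0, -0.28 for culture over day 0 and -1.63 for lungs over culture. With the inverse Simpson index the lung ratios were -2.36 and -2.11. Counting hairpins with at least 1 read per 1000 gave -0.27, -0.11 and -0.16. With controls included the ratios involving culture were -0.53 and -1.30, and without TRCN0000094205 the lung ratios were -0.30 and -0.027. Without 1 library they were -2.12 to -1.80, -0.30 to -0.26 and -1.84 to -1.52.

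With 3 libraries to an arm, 1 cell line and 1 virus pool, no lung value rests on more than 3 mice. Lung library A, with 225640 pool 1 reads, limits hairpins under about 0.01% of the reads there.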

Other observations

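Pool 1 was far from even before injection. At day 0 the 4 most abundant hairpins, against Lama1, Galnt13, Csmd3 and Gpr98, were TRCN0000094205, TRCN0000093788, TRCN0000087306 and TRCN0000028752, with mean shares of 22.5%, 8.45%, 7.66% and 5.48% of the pool 1 reads, while Adamts20 TRCN0000031698 held 0.0034%. In the lungs the Lama1, Gpr98 and Galnt13 hairpins were the 3 most abundant, with means of 63.1%, 3.81% and 3.69%, and the Csmd3 hairpin ranked 19 of 52 at 0.655%. In culture the Gpr98 hairpin ranked second at 8.39%, followed by Ntf3 TRCN0000065440 at 6.61%, the Csmd3 hairpin at 6.49% and the Galnt13 hairpin at 5.93%. These ranks and shares are a description, with no test.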
